A study of Homo sapiens with 10 samples.

Results

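The E2F transcription factor genes E2F1 to E2F8 and the pocket protein genes RB1 and RBL1 were followed in HeyA8 cells, an established human ovarian cancer line, after transfection with 10 nM of 1 of 3 siRNA duplexes. These 10 genes were taken by gene name out of 58395 genes in the count files, and all 10 were kept by the filter on low counts that left 16905 genes for testing. The 5 groups of 2 libraries were siNT1 S2'OM and siGGGGGC (titled siMxy by the submitters) at 24 h, and siNT1 S2'OM, siGGCAGU (titled si34a) and siGGGGGC at 48 h. siNT1 is the non-targeting control, and each of the other duplexes is called by its 6mer seed, bases 2 to 7 counted from the 5′ end of the guide. Every group shared the parental cells and the transfection itself, no untransfected cells were included here, and the duplicates of a group were wells of the same kind of transfection. The p-values therefore measure the spread between wells.

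E2F proteins bind DNA as dimers and switch genes of DNA replication and nucleotide synthesis on or off as a cell moves from G1 into S phase. E2F1, E2F2 and E2F3 are known as activators, E2F4 and E2F5 as repressors that work together with pocket proteins, E2F6 as a repressor that acts through a Polycomb complex, and E2F7 and E2F8 as repressors that need no pocket protein. The pocket proteins pRB (from RB1) and p107 (from RBL1) hold E2F proteins back until cyclin-dependent kinases phosphorylate them, and several E2F genes, RBL1 among them, are themselves E2F targets.

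The seeds of both active siRNAs also occur in human microRNAs. The RefSeq sequences (GRCh38.p14) of 3 microRNAs with the seed of siGGCAGU and of 2 with the seed of siGGGGGC are given here, with bases 2 to 8 in capitals. Another microRNA with the seed of siGGCAGU, hsa-miR-548au-3p, is not shown. Base 8 of these microRNAs is not shared with the siRNA guides. The matches counted below were taken from the siRNA seeds, positions 2 to 7 only.
hsa-miR-34a-5p: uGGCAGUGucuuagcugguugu
hsa-miR-449a: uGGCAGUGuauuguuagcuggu
hsa-miR-449b-5p: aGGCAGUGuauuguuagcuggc
hsa-miR-1237-5p: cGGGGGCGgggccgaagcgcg
hsa-miR-4488: aGGGGGCGggcuccggcg

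A transcript can pair with a seed through the reverse complement of the seed, GCCCCC for siGGGGGC and ACTGCC for siGGCAGU. In the longest annotated 3′ UTR of each gene (GENCODE 44, hg38), GCCCCC was found in 3 of the 10 genes, 2 times in E2F1, 8 times in E2F2 and once in E2F4. ACTGCC was found in 4 genes, 3 times in E2F5 and once each in E2F2, E2F3 and RB1. E2F6, E2F7, E2F8 and RBL1 had neither word, and none of the 10 genes had CGACTA, the match to the siNT1 seed. Over 19248 genes with an annotated 3′ UTR, 30.2% had GCCCCC, 32.7% had ACTGCC and 2.74% had CGACTA. Whether a match had a part in any change below was not tested. The sites of the members with 1 or 2 matches to a seed, and the single ACTGCC site of E2F2, are shown with 12 bases on either side, read along the transcript, with the 6 matching bases in capitals and their hg38 position.
E2F1, first site, chr20:33676668-33676673, minus strand: tgcagccctggaGCCCCCtgtccctggccg
E2F1, second site, chr20:33675906-33675911, minus strand: agggccccagctGCCCCCcaggatggatat
E2F4, chr16:67198327-67198332, plus strand: gaacaggactcaGCCCCCatcaccgtggag
E2F2, chr1:23508859-23508864, minus strand: ttaaaacaaaaaACTGCCaaaagcatcccc
E2F3, chr6:20493161-20493166, plus strand: taatttgtaaacACTGCCagaatactttct
RB1, chr13:48480542-48480547, plus strand: gcaatttgattgACTGCCcattcaccaaaa

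The promoters were searched for E2F words because several of these genes are known to be regulated by E2F proteins. The words TTTCCCGC, TTTCGCGC, TTTGCCGC and TTTGGCGC were looked for on both strands of the RefSeq promoter windows (GRCh38.p14, 250 bases before to 50 after a transcription start). Windows were listed for 8 of the 10 genes, E2F5 and E2F8 being those without an entry. An E2F word was found in 4 of them, with 2 matches in E2F1, 1 in E2F2, 1 in the first of the 2 windows of E2F3, and 2 in RBL1, against 3.31% of 35116 windows overall. When the same words without their first T were looked for, E2F7 also had 2 matches and E2F6 had 1, so that 6 of the 8 genes had one, against 13% of windows. E2F4 and RB1 had no word of either length, although the RB1 window is inside the annotated gene rather than at its 5′ end. The cell cycle homology word TTTGAA was found in the first E2F3 window alone among the 8 genes, against 15.2% of all windows. The matches are shown as 30 bases read along the gene's strand, with the E2F word, or its reverse complement, in capitals.
E2F1, upstream match, chr20:33686400-33686429, minus strand: gtggctctttcGCGGCAAAaaggatttggc
E2F1, downstream match, chr20:33686387-33686416, minus strand: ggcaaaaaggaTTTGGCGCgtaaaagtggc
E2F2, chr1:23531257-23531286, minus strand: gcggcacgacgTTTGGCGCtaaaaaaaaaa
E2F3, chr6:20401815-20401844, plus strand: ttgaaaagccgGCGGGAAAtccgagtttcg
RBL1, upstream match, chr20:37096005-37096034, minus strand: cagctgcagatTTTCGCGCgctttggcgca
RBL1, downstream match, chr20:37095995-37096024, minus strand: ttttcgcgcgcTTTGGCGCaggtggttgtg

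Libraries held between 19781445 and 42428986 counts, and the small structural RNAs RN7SL2 and SNORD3A took 19.83% to 31.96% of them. The cells carried the keratins KRT7, KRT8 and KRT18 (group means of 1997 to 9742 counts normalised by TMM, a scaling of library sizes), VIM (20670 to 38310), FN1 (1335 to 26490), CDH2 (1538 to 2300) and PAX8 (102.7 to 834.2). EPCAM and KRT19 were low at 9.694 to 38.38, and CDH1 and MUC16 were at 0.2864 to 15.51. The leukocyte, endothelial and muscle markers PTPRC, PECAM1, CDH5 and DES were at 0 to 36.62. With siGGGGGC at 48 h, 4 of 6 epithelial and 3 of 3 mesenchymal markers tested were lower and none higher. Of all tested genes, 27.5% were lower and 27.8% higher. With siGGCAGU, 2 epithelial markers and 1 mesenchymal marker were higher, and 1 of each was lower, beside 27.8% higher and 24.9% lower among all tested genes. The part of these markers in the results below was not tested.

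Per kb of exon, which allows genes of different length to be set side by side, E2F4 led the 10 genes in siNT1 cells at 24 h with 317.3 ± 14.7 normalised counts per kb (SD, n = 2). E2F1 followed with 253.3 ± 10 and RB1 with 204.9 ± 11.5. RBL1 (163.6) and E2F7 (150.7) had overlapping libraries, whereas E2F6 (129.8), E2F3 (112.9), E2F5 (32.39), E2F8 (25.3) and E2F2 (13.02) stood apart in that order. The rarest member was therefore the activator E2F2, and the atypical repressor E2F8 came next. In siNT1 cells at 48 h, RB1 and E2F7 overlapped, as did E2F8 and E2F5, and all other neighbours were separate. After siGGCAGU the order began with E2F7 (226.2), followed by RB1 (194.7) and E2F4 (194.6), which overlapped. This order depended on the length used. With the longest transcript as length, it began with E2F4 (267.5), RB1 (262.7) and E2F7 (248.6). In siNT1 cells at 24 h, RB1 (276.6) was then above E2F1 (253.3). After siGGGGGC at 48 h it began with RB1 (327.5), followed by E2F6 (202.9) and E2F3 (202.3), which overlapped. These values are levels of a whole gene, so the E2F3 transcripts made from its 2 promoters could not be separated. The known pseudogenes of E2F3, E2F4 and E2F6 had at most 2 counts in any library.

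**Figure D1:**
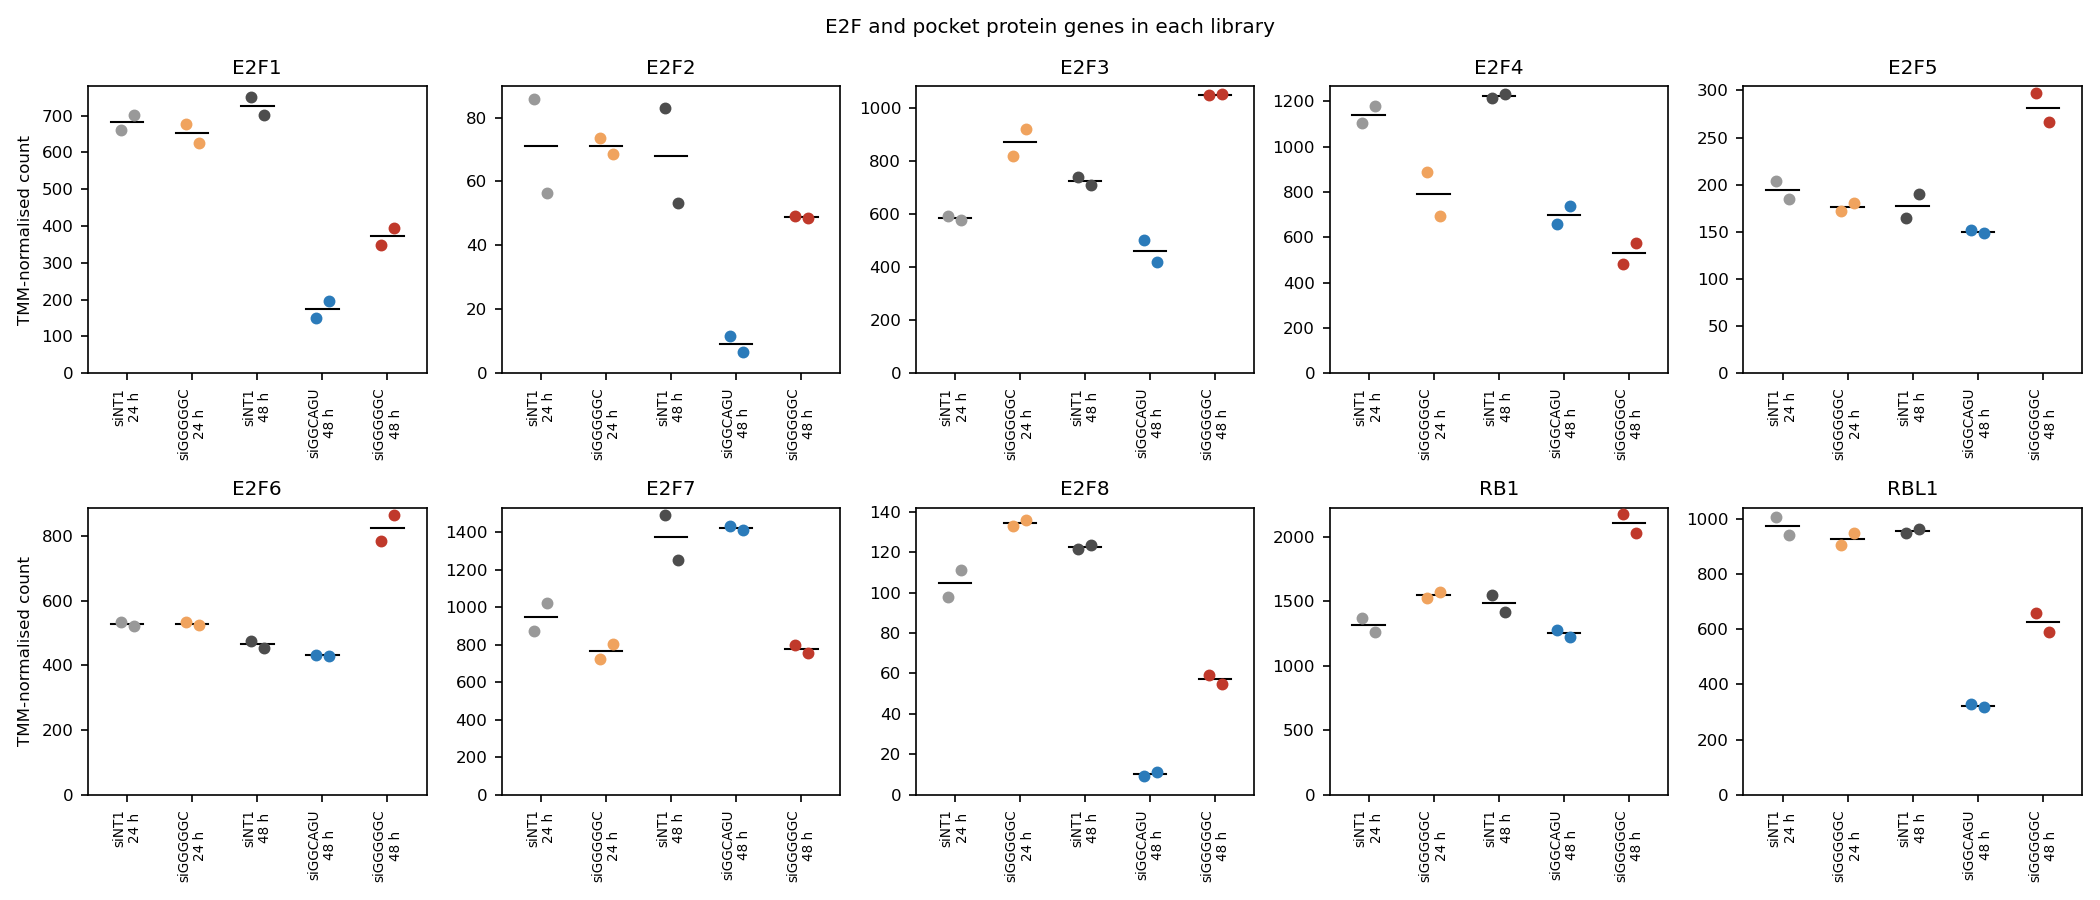
Normalised counts (y axis, TMM scale from 0) of the 10 genes in each of the 10 libraries, by siRNA and time (x axis); points are libraries and lines are the means of 2. Every gene but E2F4 and E2F7 had its lowest mean with siGGCAGU. E2F3, E2F5, E2F6 and RB1 had their highest mean with siGGGGGC at 48 h.

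siGGCAGU was compared with siNT1 at 48 h to see how the family stood in cells with the seed of miR-34a-5p. Of the 10 genes, 7 fell and none rose, while 24.9% of all tested genes fell and 27.8% rose at an adjusted p below 0.05. The falls were largest in E2F8, E2F2, E2F1 and RBL1, each beyond 2-fold, a size of fall that 9.62% of all tested genes reached. The repressors E2F5, E2F6 and E2F7 did not pass the test. The median log2 fold change of the 10 genes was -0.73, against 0.02 over all genes. In bulk RNA, fewer cells with a transcript and less of it per cell cannot be told apart.

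E2F8, an atypical repressor expressed in S phase (chr11:19224063-19241620, minus strand, hg38), had 121.6 and 123.7 normalised counts in the siNT1 libraries at 48 h and 9.155 and 11.16 with siGGCAGU, the latter from 7 and 15 reads. Its level with siGGCAGU was 0.0857 times that with siNT1, a log2 fold change of -3.55 ± 0.23 (SE, adjusted p = 4.73e-09). E2F2, an activator, had 82.87 and 53.28 with siNT1 and 11.77 and 6.694 with siGGCAGU, from 9 reads in each of the latter. It fell to 0.13 times its siNT1 level, a log2 fold change of -2.95 (95% interval -3.71 to -2.19, adjusted p = 4.87e-06). In both genes the groups were far apart, but the read numbers behind the low values were small, and the interval of E2F2 was the widest of the 10.

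E2F1, the best studied activator, had 750.5 and 701.2 normalised counts with siNT1 and 149.1 and 197.1 with siGGCAGU. The log2 fold change was -2.04 ± 0.13 (SE, adjusted p = 3.65e-09), a level 0.243 times that of the control. RBL1, which encodes p107, had 950.3 and 964.7 with siNT1 and 328.3 and 317.6 with siGGCAGU. Both libraries of each pair were close to each other, and the log2 fold change was -1.57 ± 0.10 (SE, adjusted p = 3.09e-09).

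E2F4, the main pocket protein partner in resting cells, and E2F3, the remaining activator, fell less. E2F4 had 1216 and 1231 normalised counts with siNT1 and 659.1 and 740.1 with siGGCAGU, a log2 fold change of -0.80 ± 0.12 (SE, adjusted p = 3.06e-05). E2F3 had 738.9 and 710.9 with siNT1 and 502.2 and 419.5 with siGGCAGU, a log2 fold change of -0.66 ± 0.10 (SE, adjusted p = 6.15e-05). Neither gene's libraries overlapped between groups, which with 2 libraries a group also occurred without a passing test, as for E2F1 between the siNT1 times.

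RB1, the retinoblastoma tumour suppressor gene, moved least among those that passed, from 1550 and 1420 to 1279 and 1226 (log2 fold change -0.25, 95% interval -0.43 to -0.06, adjusted p = 0.027). This call was not kept without siNT1 48 h replicate 1 (adjusted p = 0.14), without siGGCAGU replicate 2 (0.0906), or when the 48 h siNT1 and siGGCAGU libraries were fitted alone (0.0742). E2F5 had 165 and 189.6 with siNT1 and 151.7 and 148.8 with siGGCAGU, and its difference of -0.25 on the log2 scale did not pass (interval -0.53 to 0.04, adjusted p = 0.134). E2F6 differed by -0.11 (interval -0.31 to 0.10, adjusted p = 0.371), with 474.8 and 453.7 against 432.9 and 429.2. E2F7 had 1494 and 1252 with siNT1 and 1432 and 1414 with siGGCAGU, groups that overlapped, and its interval ran from -0.17 to 0.27 (adjusted p = 0.698). Of the atypical repressors, E2F8 passed and E2F7 did not under the same siRNA, and the difference between the genes was not tested.

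siGGGGGC was compared with siNT1 at 24 h for the earliest changes, and only E2F3 and E2F4 passed among the 10 genes. E2F3 rose and E2F4 fell, while 10.6% of all tested genes rose and 8.32% fell. The median of the 10 genes was -0.04 on the log2 scale, against 0.00 over all genes. E2F3 had 594.3 and 577.4 normalised counts with siNT1 and 818.5 and 920.9 with siGGGGGC, a log2 fold change of 0.57 ± 0.11 (SE, adjusted p = 0.00146). E2F4 had 1104 and 1178 with siNT1 and 886.4 and 692.1 with siGGGGGC, a log2 fold change of -0.53 ± 0.12 (SE, adjusted p = 0.00575). Its groups did not overlap, but the siGGGGGC libraries were well apart, and the call was not kept without siGGGGGC 24 h replicate 2 (-0.36, adjusted p = 0.126) or without siNT1 24 h replicate 2 (-0.47, adjusted p = 0.0716).

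The other 8 genes did not pass at 24 h. E2F1 had 662.3 and 700.5 with siNT1 and 678.5 and 626.3 with siGGGGGC, which overlapped (interval of the log2 difference -0.315 to 0.19, adjusted p = 0.77). E2F2 had 85.92 and 56.3 with siNT1 and 73.62 and 68.64 with siGGGGGC. Its interval of -0.59 to 0.58 was too wide to exclude a change of moderate size (adjusted p = 0.99). E2F8 was higher in both siGGGGGC libraries (132.8 and 135.8) than in siNT1 (97.85 and 111.3) without passing, at 0.36 on the log2 scale (adjusted p = 0.152). RB1 differed by 0.23 (adjusted p = 0.087), with 1371 and 1266 against 1523 and 1572, and passed with the 24 h libraries fitted alone (0.21, adjusted p = 0.0198). E2F7 differed by -0.31 (adjusted p = 0.0662), with 873.5 and 1023 against 726.1 and 803.6, and passed when the 24 h libraries were fitted alone (adjusted p = 0.00723) or when genes averaging under 50 counts were left out (0.044). E2F5, E2F6 and RBL1 differed by -0.14, 0.00 and -0.07.

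At 48 h with siGGGGGC, compared with the same siNT1 libraries that served for siGGCAGU, members moved in both directions. E2F3, E2F5, E2F6 and RB1 rose, E2F1, E2F4, E2F7, E2F8 and RBL1 fell, and only E2F2 did not pass. Among all tested genes 27.8% rose and 27.5% fell, shares that together exceed those at 24 h. E2F4 and E2F8 fell beyond 2-fold, as 11.0% of all tested genes did, and no member rose that far. The median log2 fold change of the 10 genes was -0.54, against -0.01 over all genes.

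The largest fall was that of E2F4, from 1216 and 1231 normalised counts with siNT1 to 484 and 576.8 with siGGGGGC (log2 fold change -1.21 ± 0.12, SE, adjusted p = 5.79e-07). E2F8 went from 121.6 and 123.7 to 59.24 and 54.88 (-1.10 ± 0.17, SE, adjusted p = 4.92e-05). E2F1 went from 750.5 and 701.2 to 347.6 and 395.6 (-0.96 ± 0.12, SE, adjusted p = 5.38e-06). The groups were clearly apart in all 3 genes. The atypical repressor E2F7 (chr12:77021248-77065569, minus strand) had 800.3 and 754.9 with siGGGGGC, below both siNT1 libraries (1494 and 1252), with a log2 fold change of -0.82 ± 0.11 (SE, adjusted p = 1e-05). RBL1 had 658.4 and 591.3, against 950.3 and 964.7 (-0.62 ± 0.09, SE, adjusted p = 3.68e-05). The activator E2F2 had 49.18 and 48.67 with siGGGGGC and 82.87 and 53.28 with siNT1. Its difference of -0.45 did not pass (interval -1.01 to 0.10, adjusted p = 0.154), and did so without siNT1 48 h replicate 2 (-0.77, adjusted p = 0.0274).

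Among the genes that rose, E2F6, the Polycomb-linked repressor (chr2:11444375-11466177, minus strand), went from 474.8 and 453.7 to 784.7 and 865.7 (log2 fold change 0.83 ± 0.09, SE, adjusted p = 2.08e-06). E2F5, which encodes a p130-binding repressor, went from 165 and 189.6 to 297.3 and 266.1 (0.66 ± 0.13, SE, adjusted p = 0.000359). E2F5 shares 997 bases of exon with RBIS on the opposite strand, and it is not stated whether counting used strand, so reads of the pair may not have been kept apart. RBIS differed the other way, at -0.39 on the log2 scale (adjusted p = 0.0105). E2F3 had 1048 and 1051 with siGGGGGC, above 738.9 and 710.9 (0.53 ± 0.10, SE, adjusted p = 0.000297). RB1 had 2181 and 2034, above 1550 and 1420 (0.51 ± 0.09, SE, adjusted p = 0.000143). The pocket protein genes RB1 and RBL1 thus went in opposite directions.

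**Figure D2:**
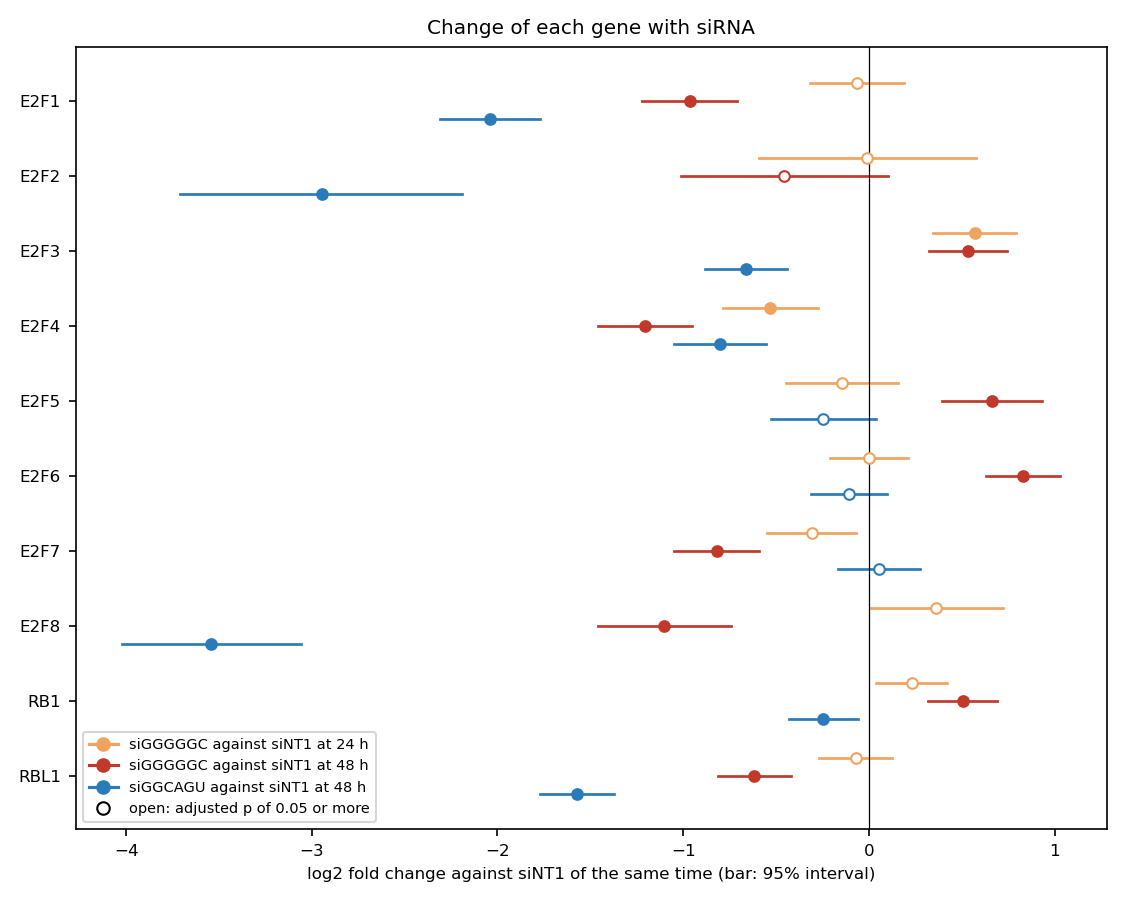
Log2 fold change against siNT1 of the same time (x axis) for each gene (y axis), with points for the estimate and bars for its 95% interval; open points did not pass. With siGGGGGC at 48 h 4 genes were to the right of 0 and 5 to the left, whereas every gene that passed with siGGCAGU was to the left.

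Whether the siGGGGGC effect differed between 24 h and 48 h was tested directly as the difference of the 2 log2 fold changes. It was more positive at 48 h in E2F5 (0.81 ± 0.19, SE, adjusted p = 0.00494) and E2F6 (0.83 ± 0.14, SE, adjusted p = 0.00033). It was more negative in E2F8 (-1.47 ± 0.24, SE, adjusted p = 0.000319), E2F1 (-0.90 ± 0.17, SE, adjusted p = 0.000906), E2F4 (-0.67), RBL1 (-0.55) and E2F7 (-0.51). These are 2 of 10 and 5 of 10 genes, beside 13.4% and 15.2% of all tested genes. E2F8 changed the most with time, from a positive estimate at 24 h to one of -1.10 at 48 h. For E2F3 (-0.04, interval -0.34 to 0.27), E2F2 (adjusted p = 0.411) and RB1 (0.112) the difference did not pass. The call on E2F4 was not kept without siGGGGGC 24 h replicate 1 (adjusted p = 0.0607) or siGGGGGC 48 h replicate 1 (0.0511). That on E2F7 was not kept without siNT1 24 h replicate 1 (0.122), siGGGGGC 24 h replicate 2 (0.0974), siNT1 48 h replicate 1 (0.0704) or siGGGGGC 48 h replicate 2 (0.0842).

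**Figure D3:**
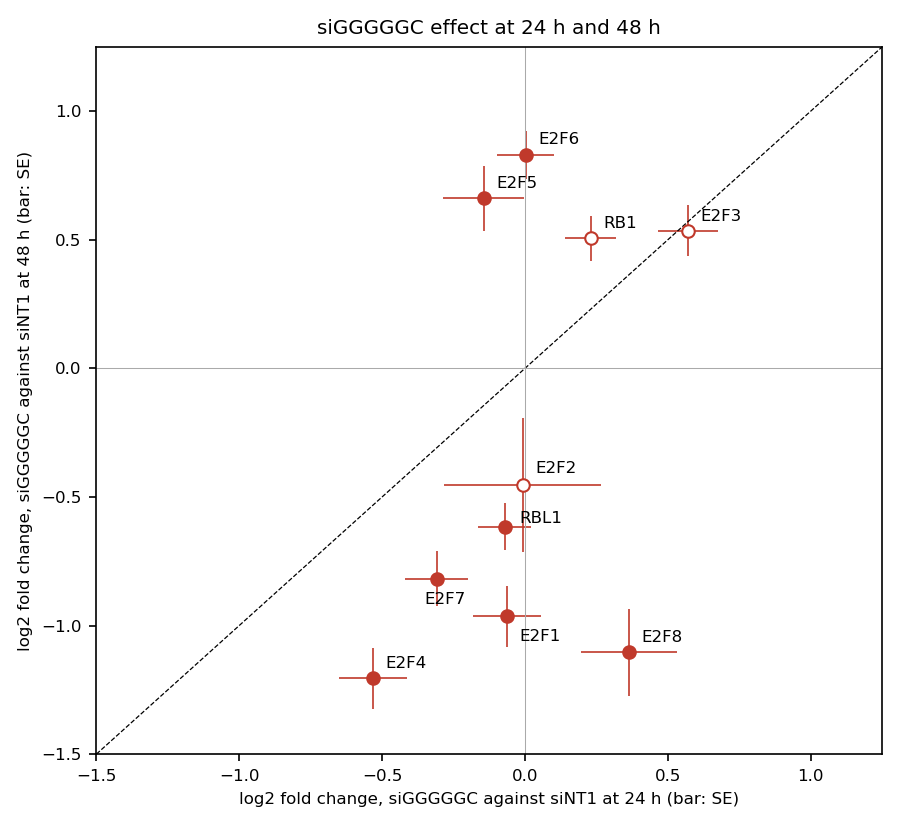
Log2 fold change with siGGGGGC at 24 h (x axis) and 48 h (y axis) for each gene, with SE bars; filled points passed the test of the difference, and the dashed line marks equal effects. E2F3 is near the line, E2F5 and E2F6 are above it, and E2F1, E2F4, E2F7, E2F8 and RBL1 are below it.

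The 2 active siRNAs were set against each other at 48 h without use of the siNT1 libraries in the contrast, and all 10 genes passed. With siGGGGGC 8 were higher than with siGGCAGU and 2 were lower, beside 26.7% higher and 27.6% lower among all tested genes. E2F2 (2.49 ± 0.39, SE, adjusted p = 6.18e-05), E2F8 (2.44 ± 0.26, SE, adjusted p = 1.17e-06), E2F3 (a level 2.29 times that with siGGCAGU) and E2F1 (1.08) were higher by more than 2-fold, as 10.1% of all tested genes were. RBL1 (0.95), E2F6 (0.94), E2F5 (0.91) and RB1 (0.75) followed, with adjusted p-values from 6.83e-07 to 3.04e-05. E2F7 was lower with siGGGGGC by 0.87 ± 0.11 on the log2 scale (SE, adjusted p = 5.44e-06), at 0.546 times its siGGCAGU level. E2F4 was lower at a log2 fold change of -0.40 (adjusted p = 0.011), a call not kept without siGGCAGU replicate 2 (0.0727) or siGGGGGC 48 h replicate 1 (0.143). The activators were all lower with siGGCAGU.

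Between 24 h and 48 h in siNT1 cells, E2F7 was the only member that passed, from 873.5 and 1023 to 1494 and 1252 normalised counts (log2 fold change 0.53 ± 0.11, SE, adjusted p = 0.00487). Of all tested genes, 9.37% rose and 7.20% fell with time in these cells. The E2F7 call was not kept without siNT1 24 h replicate 1 (adjusted p = 0.0921) or siNT1 48 h replicate 1 (0.0537). E2F3 was next (0.31, adjusted p = 0.0533) and passed with the 4 siNT1 libraries fitted alone (0.0394). The remaining 8 genes were between -0.19 and 0.23. The lower E2F7 value with siGGGGGC at 48 h (777.6 ± 32.1, n = 2) was close to that of siGGGGGC at 24 h (764.9 ± 54.8, n = 2), while the siNT1 mean was 948 at 24 h and 1373 at 48 h.

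Summed per kb of exon, the 8 E2F genes reached 1011 and 1058 normalised counts per kb in siNT1 cells at 24 h and 1186 and 1122 at 48 h. The sum was 977.1 and 935 with siGGGGGC at 24 h, 858.9 and 909.4 with it at 48 h, and 699.2 and 718.9 with siGGCAGU. The composition also differed between the groups. The activators E2F1 to E2F3 made up 36.6% ± 0.35 (SD, n = 2) of the sum in siNT1 cells at 48 h, 21.8% ± 0.35 with siGGCAGU and 39.5% ± 0.14 with siGGGGGC. Within the activators, E2F1 was the most abundant with siNT1, whereas E2F3 was with siGGGGGC at 48 h (202.3 against 138.1) and with siGGCAGU (88.8 against 64.35). E2F6 made up 9.89% ± 0.071 with siNT1 at 48 h, 15% ± 0.35 with siGGCAGU and 23% ± 0.64 with siGGGGGC. E2F7 and E2F8 together made up 21.4% ± 1.5, 32.2% ± 0.92 and 15.6% ± 1.3, nearly all of it from E2F7. E2F4 and E2F5 took 32% ± 1.8, 31% ± 1.6 and 22% ± 0.78. These shares are given as a description and have no test. They also rest on the exon length used. With the longest transcript as length, E2F4 in siNT1 cells at 48 h was at 467.9 per kb in place of 340.2. E2F1, E2F2 and E2F3 were then at 269.8, 13.1 and 143.9. Which class of E2F genes was the largest in siNT1 cells at 48 h therefore depended on the length.

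**Figure D4:**
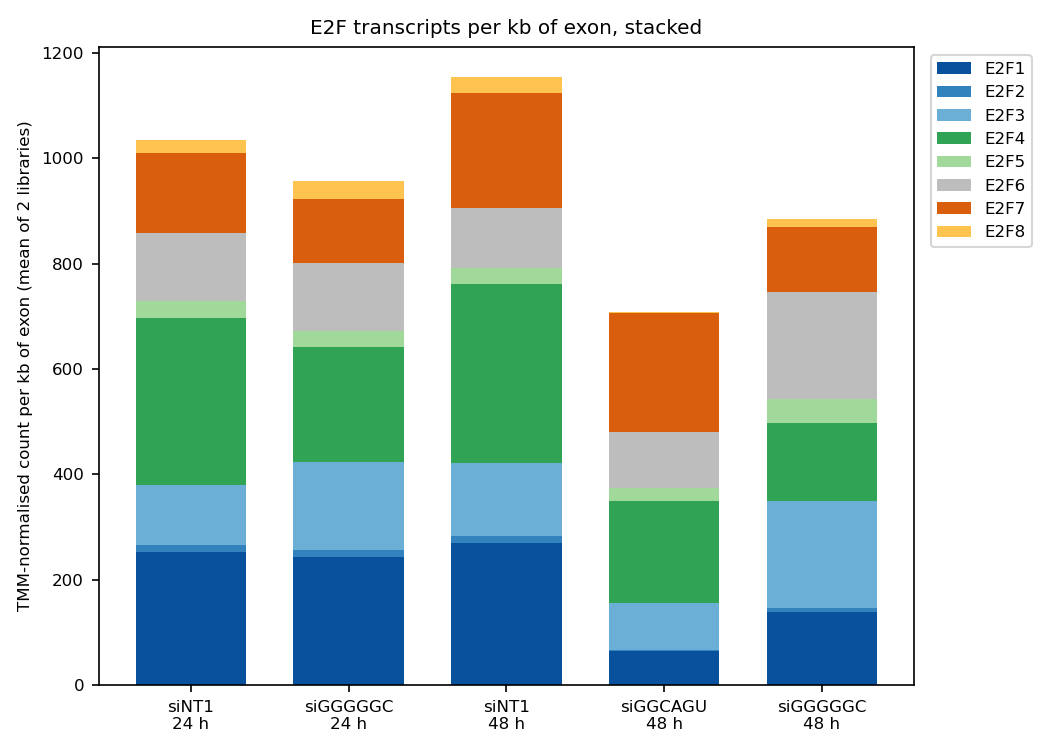
Normalised counts per kb of exon (y axis, from 0) of the 8 E2F genes, stacked, as the mean of 2 libraries in each group (x axis). The blue E2F1 to E2F3 segments shrink with siGGCAGU, the green E2F4 segment and the orange E2F7 segment are smaller with siGGGGGC at 48 h than with siNT1, and the grey E2F6 segment is larger.

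Genes that E2F proteins are known to drive were read from a list, of which 26 tested genes are described here. With siGGCAGU all 26 fell (24.9% of all tested genes did), 23 of them beyond 2-fold (9.62%), and the median was -1.88 against 0.02 over all genes. CDC25A, the phosphatase that activates CDK2, had a log2 fold change of -3.47 (adjusted p = 8.22e-12), MYBL2 (B-MYB) of -3.40 (2.37e-10) and MCM3, a subunit of the replicative helicase, of -3.19 (4.16e-12). With siGGGGGC at 24 h 10 rose (10.6% of all tested genes did), none fell (8.32%), and 16 did not pass, with a median of 0.25. RRM2, a ribonucleotide reductase subunit, rose by 1.27 (adjusted p = 1.43e-06), CCNE2 by 1.19 (4.84e-06) and TK1, thymidine kinase, by 0.64 (0.00018). Without siNT1 24 h replicate 1 the count that rose was 5, without any other single library it was 7 or 8, and with the 24 h libraries fitted alone it was 16, with 1 that fell. At 48 h 4 rose (27.8% of all tested genes did) and 15 fell (27.5%), with a median of -0.37, as UHRF1 (-1.38), MCM3 (-0.95) and MCM7 (-0.95) fell while CCNE2 (1.07), CCNE1 (0.64) and CDC6 (0.32) rose. The count that rose at 48 h was 2 without siNT1 48 h replicate 1 or siGGGGGC 48 h replicate 1. Between the active siRNAs 24 of the 26 were higher with siGGGGGC and none lower. CCNE1, CCNE2 and MYBL2 also belong to lists described below, so the counts of those lists are not separate from these.

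**Figure D5:**
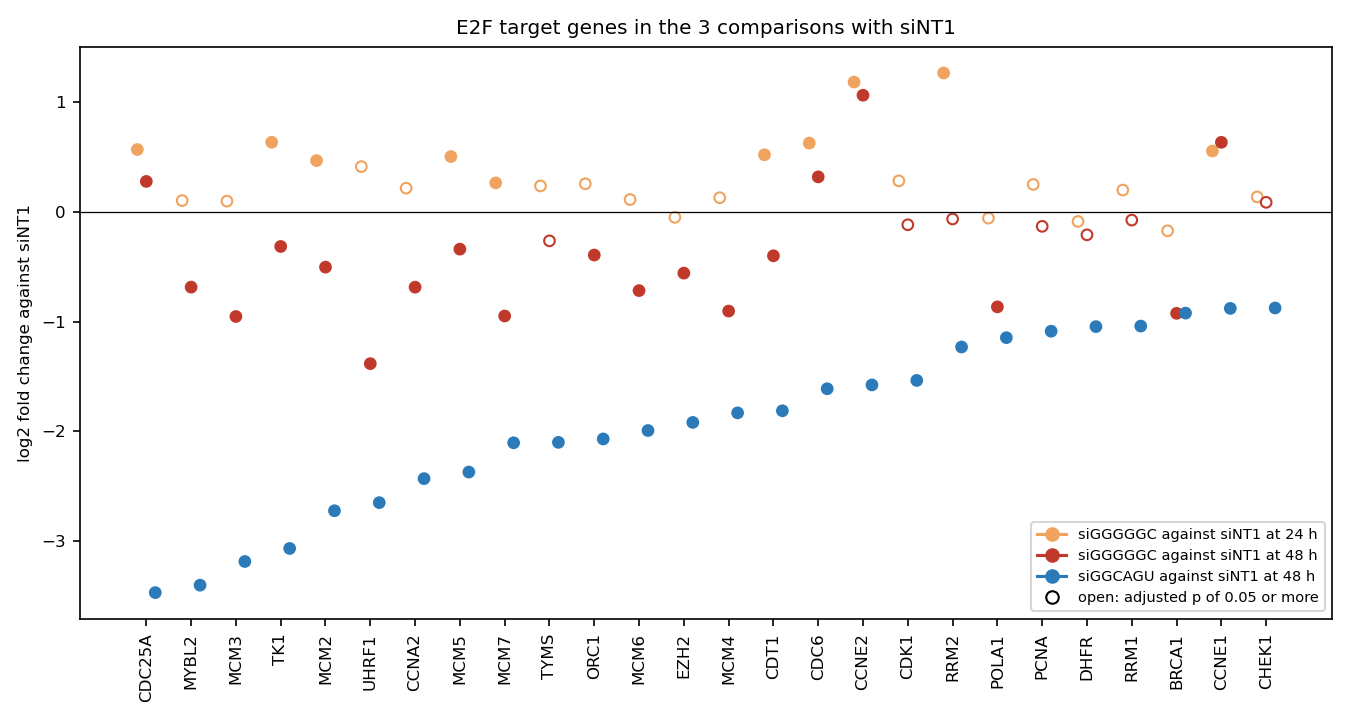
Log2 fold change against siNT1 (y axis) of 26 E2F target genes (x axis, ordered by the siGGCAGU value) in the 3 comparisons; open points did not pass. Every siGGCAGU point is below 0, and 10 of the siGGGGGC points at 24 h passed above 0.

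The dimer partners and the pocket protein gene RBL2 (p130) were measured beside the members. The counts of the lists that follow stand beside the same shares of all tested genes, 10.6% higher and 8.32% lower with siGGGGGC at 24 h, 27.8% and 27.5% with it at 48 h, and 27.8% and 24.9% with siGGCAGU. TFDP1, which encodes the usual partner DP1, fell with siGGCAGU (-0.77, adjusted p = 1.11e-06) and less with siGGGGGC at 48 h (-0.29, adjusted p = 0.00583). TFDP2 fell with both (-0.27 and -0.65), and only 1 of these 3 genes fell with siGGCAGU without siNT1 48 h replicate 2 or siGGCAGU replicate 2. RBL2 fell with siGGGGGC at 48 h (-0.41, adjusted p = 0.0148) and did not pass with siGGCAGU (0.07, adjusted p = 0.683). None of the 3 passed at 24 h. The medians of the 3 were -0.22 at 24 h and -0.41 at 48 h with siGGGGGC, and -0.27 with siGGCAGU. The MuvB core represses cell cycle genes with E2F4 and p130 and is joined by B-MYB and FOXM1 at mitotic genes. Of the list of these genes, which also held MYBL1, 6 of 8 fell with siGGCAGU. MYBL2, FOXM1 (-2.09) and LIN9 (-1.04) led, and the list median was -0.79. FOXM1 (-2.01) and MYBL2 (-0.69) fell and LIN52 rose (0.60) with siGGGGGC at 48 h, where the list median was -0.09. At 24 h MYBL1 (0.87), LIN52 (0.34) and RBBP4 (0.29) rose and none fell. That count was 1 without any single library, without the filter on low counts, and with the replicate number as a block.

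The cyclins and kinases that phosphorylate pocket proteins fell in 7 of 8 cases with siGGCAGU, with a median of -1.10. CDK4 (-2.41), CCND1 (-2.08) and CCNE2 (-1.58) led, and CCND2, at 15.49 and 18.63 normalised counts, did not pass. With siGGGGGC at 24 h 5 rose and 2 fell, with a median of 0.34, and CCNE2, CCND3 (0.71) and CCNE1 (0.56) led the rises while CCND2 (-2.73) and CDK6 (-0.35) fell. CCND2 was near the floor, at mean normalised counts of 15.02 with siNT1 and 2.152 with siGGGGGC at 24 h. Its means at 48 h were 15.49 and 2.194. At 48 h 3 rose, CCND3 (1.12), CCNE2 and CCNE1, and 4 fell, among them CCND2 (-2.76), CDK2 (-0.87) and CDK4 (-0.36), with a median of -0.23. At 24 h these counts were 2 to 3 and 0 to 1 without any single one of the 4 libraries. At 48 h the count that fell was 2 without siNT1 replicate 1, siGGGGGC replicate 1 or siGGGGGC replicate 2, and 5 without siNT1 replicate 2. Of the CDK inhibitor genes, CDKN2A and CDKN2B had 0 counts in all 10 libraries, where a 0 allows up to 3 counts in each, and 5 were tested. CDKN1B (p27) rose in all 3 comparisons, by 0.91 and 0.88 with siGGGGGC and 0.38 with siGGCAGU. CDKN1A (p21) had -0.35 with siGGGGGC at 24 h, 0.75 at 48 h and -0.27 with siGGCAGU, all of which passed, although the 24 h call was lost without any single library and only 1 of 2 falls with siGGCAGU was kept without siNT1 48 h replicate 2 or siGGCAGU replicate 2. CDKN1C rose by 1.61 with siGGGGGC at 48 h and 1.93 with siGGCAGU, and CDKN2C rose by 0.62 at 24 h with siGGGGGC and fell with siGGCAGU (-1.14). The rises at 24 h numbered 1 without siNT1 24 h replicate 2 or siGGGGGC 24 h replicate 2. The list medians were -0.35 at 24 h and 0.75 at 48 h with siGGGGGC, and -0.06 with siGGCAGU.

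Of the 10 genes of pocket protein corepressors, 4 fell and 1 rose with siGGCAGU (median -0.31), and 6 fell and 2 rose with siGGGGGC at 48 h (median -0.45). The rises, 1 and 2 of 10, were below the 27.8% of all tested genes in either comparison. SUV39H1, a histone H3 methyltransferase, fell with both (-1.51 and -1.28), as did DNMT1, the maintenance DNA methyltransferase (-1.38 and -0.68). HDAC2 fell with both as well (-0.88 and -0.34). SMARCA2 rose with siGGCAGU (0.49) and fell with siGGGGGC at 48 h (-0.58), and HDAC1 fell with siGGCAGU (-0.76) and rose with siGGGGGC (0.24). With siGGGGGC HDAC3 fell (-0.78) and SIN3B rose (0.35), and with siGGCAGU they were at 0.12 and -0.13 and did not pass. Without any single one of the 4 libraries these rises numbered 0 or 1. At 24 h DNMT1 alone passed, and rose by 0.48 (median 0.13), a call lost without siGGGGGC 24 h replicate 1. In the Polycomb complex to which E2F6 belongs, PRC1.6, the 48 h siGGGGGC libraries had 3 genes that rose, YAF2 (0.64), RYBP (0.63) and RNF2 (0.56), and 4 that fell, among them RING1 (-1.63), WDR5 (-0.49) and L3MBTL2 (-0.43), with a median of -0.02, where 3 of 10 rising is near the share over all genes. With siGGCAGU RNF2 rose (0.40) and 6 fell, led by WDR5 (-1.08), MGA (-0.48) and L3MBTL2 (-0.48), with a median of -0.275. The rise was lost without siGGCAGU replicate 1, and 2 genes rose without siNT1 48 h replicate 1. At 24 h only MGA passed (-0.30, list median 0.03), and it did not without any single library. Of 4 germline genes known to be repressed by E2F6, only TUBB3 was high enough to be tested, and it did not pass in any comparison with siNT1 (0.40 with siGGGGGC at 48 h, adjusted p = 0.113). The ubiquitin ligase subunits that act in the turnover of E2F proteins, CCNF, SKP2 and FZR1, rose by 0.54, 0.46 and 0.55 with siGGGGGC at 24 h (median 0.54), of which 1 passed without siGGGGGC 24 h replicate 1. At 48 h CCNF fell to 0.331 times its siNT1 level and SKP2 fell too (-0.81, also the median), and with siGGCAGU all 3 fell (-2.19 for CCNF, -0.34 for SKP2 and -0.59, the median, for FZR1).

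For each member the 2 tested genes with the closest pattern over the 10 libraries were found by the root mean square distance of their centred log2 values, with no test. The libraries are shared by all pairs, and only genes with a mean normalised count of at least 100 were used. E2F1 was closest to MFHAS1 (0.116) and FANCA (0.119), E2F8 to SLC43A3 (0.162) and MCM3 (0.163), and RBL1 to MMS22L (0.0881) and GEMIN5 (0.102). E2F2, the sparsest member, was at larger distances from PRR11-AS1 (0.2) and TMEM201 (0.227). Members also varied by different amounts, so a small distance alone is not a closer match. The root mean square of a member's own centred values was 1.3 for E2F8 and 1.08 for E2F2. It was 0.307 for E2F5 and 0.266 for RB1. E2F5 and E2F6 shared their closest gene, ANKRD10 (0.0804 and 0.0691), and came next to CRBN and TBPL1. E2F3 was closest to USP37 (0.087) and CDC42EP4, E2F4 to ZNF692 (0.124) and NOL9, E2F7 to PTPN14 (0.107) and LINC00472, and RB1 to KLHL5 (0.0654) and NSD3.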

How the data were processed

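RNA was from HeyA8 cells (5 groups of 2 libraries, total RNA after rRNA depletion, paired ends). According to the methods and the submitters' processing notes, the authors trimmed the reads, aligned them to hg38 with TopHat (Bowtie2) or STAR, and counted reads in exons of Ensembl genes by HTSeq. The deposited gene counts are raw whole numbers. Whether counting used strand is not given in the sources used here. The 4 tables of the authors' own comparisons (fold changes and p-values) were not used. Symbols were found for 98.9% of the gene identifiers.

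Counts were fitted with edgeR 4.0.16 in R 4.3.3 (TMM scaling, filterByExpr, glmQLFit and glmQLFTest, all 10 libraries in 1 fit with 5 groups), which left 5 residual degrees of freedom, and p-values were adjusted by Benjamini-Hochberg over 16905 genes. A gene passed at an adjusted p below 0.05. A stricter call added a log2 fold change beyond 1. SE is the log2 fold change divided by the square root of the F statistic. All adjusted p-values are from this fit unless another is named. Total counts per library (19781445 to 42428986) limit precision for the low members E2F2, E2F5 and E2F8. The limit of 3 counts that a 0 allows covers counting error only. The 95% intervals of log2 fold changes come from the fit and include the spread between libraries. No 2 replicates agreed within counting noise, which a library deposited again would (chi-square divided by its degrees of freedom, 2.289 to 43.18 across the 5 pairs). This does not show that wells were independent.

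All 10 members are described. From the other lists (dimer partners and RBL2, MuvB core, cyclins and CDKs, CDK inhibitors, corepressors, PRC1.6, E2F6-repressed germline genes, ubiquitin ligase subunits, E2F target genes, and 3 marker lists), the text names up to 3 largest falls and 3 largest rises that passed in each comparison with siNT1. Genes named without passing or beyond that rule (HDAC1 and SMARCA2 in the second comparison, HDAC2, HDAC3 and SIN3B likewise), and RBIS, were chosen after their values were seen or from the annotation. Members, lists and tests were chosen with earlier results of these data known. Alternatives were RLE scaling, the Wald test of DESeq2 1.42.0, no filter, a mean count of at least 50, a replicate block, removal of RN7SL2 and SNORD3A, fits of the compared libraries alone, and each library left out in turn. The siRNA strands are not printed here.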

Additional observations from a re-analysis of the deposited data

Results flagged for a closer look

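The effect of siGGGGGC differed between 24 h and 48 h, by a test of the difference itself (edgeR, Benjamini-Hochberg over 16905 genes), in 7 of the 10 genes. Of all tested genes 13.4% had a more positive and 15.2% a more negative effect at 48 h. On the log2 scale the 48 h effect minus the 24 h effect was -1.47 for E2F8, -0.90 for E2F1, -0.67 for E2F4, -0.55 for RBL1 and -0.51 for E2F7. It was 0.81 for E2F5 and 0.83 for E2F6. The calls on E2F4 and E2F7 were lost without single libraries, at adjusted p-values of up to 0.0607 (without siGGGGGC 24 h replicate 1) and 0.122 (without siNT1 24 h replicate 1). Both siGGGGGC libraries of E2F8 were above both siNT1 libraries at 24 h (132.8 and 135.8 against 97.85 and 111.3, a difference that did not pass by itself) and below them at 48 h (59.24 and 54.88 against 121.6 and 123.7). With 2 libraries a group, single deviating libraries were not searched for.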

How the results depend on the processing

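Of 700 values of the 10 genes under alternatives, 660 kept their direction and their side of the threshold, and with siGGGGGC at 48 h 109 of 110 did. Of 792 alternative counts for the gene lists 723 stayed within 1.5 times, and 46 of the other 69 came from leaving out 1 library. The cause of the changes below was not tested.

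The number of genes that fell at 24 h was 2488 with the compared libraries fitted alone, where 2 members rose and 2 fell, and 2 fell also with a mean count of at least 50. That filter left fewer genes to test and gave 1157 (siGGGGGC at 48 h, lower), 1045 (siGGCAGU, lower) and 975 (siGGGGGC above siGGCAGU) beyond 2-fold. Without the filter 2425 genes rose and 728 fell with time in siNT1 cells, 76.9% of calls being rises against 56.6%, and for the difference between times 1626 rose and 3402 fell, against 2269 and 2564. Under 4 settings (no filter, the mean of 50, without RN7SL2 and SNORD3A, libraries alone) 2 members rose with time in siNT1 cells, E2F3 joining E2F7. Only 5 of the 20 nearest genes were kept at a minimum mean of 1000. That setting removes genes by their level and leaves the distances as they were, so it cannot show how stable the neighbours are. In the shortest 3′ UTR 2 members had ACTGCC, and 6 of 10 kept their rank per kb in siNT1 at 48 h with the longest transcript as length.

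Signs changed in 17 member values, none of which had passed. At 24 h E2F2 was 0.0042 by DESeq2 and 0.0062 without the filter, and E2F6 was -0.013 with the mean of 50, -0.00036 without the small RNAs and -0.016 with libraries alone. E2F7 with siGGCAGU was -0.028, and RBL1 over time in siNT1 cells 0.059, without the filter.

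Without 1 library, genes at 24 h numbered 772 to 1044 higher and 670 to 721 lower, each of the 4 libraries lowering them, and members lower 0 to 1. With time in siNT1 cells 338 to 2009 rose and 132 to 1519 fell, with 338 and 132 reached without siNT1 24 h replicate 2, and members higher were 0 to 1. Genes with a more positive effect of siGGGGGC at 48 h than at 24 h numbered 1487 (without siNT1 24 h replicate 2) to 2213. Members lower with siGGGGGC than with siGGCAGU were 1 to 2. Ranges that crossed 0 were -0.11 to 0.0018 for E2F1, -0.26 to 0.34 for E2F2 and -0.0022 to 0.022 for E2F6 at 24 h, -0.076 to 0.18 for E2F7 with siGGCAGU, -0.41 to 0.25 for E2F2 and -0.059 to 0.026 for RBL1 in siNT1 cells, and -0.13 to 0.039 for the difference in E2F3. Where a group kept 1 library, it was assumed to vary like the others.

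Replicate numbers were shared by the groups, but the labels name no common batch and replicate deviations hardly correlated (-0.0894 to 0.0266), so the samples were not paired. With the number as a block, 1608 and 1241 genes rose and fell at 24 h, no count of members or of all genes moved by over 1.5 times, 1 list count did (MuvB core, B-MYB and FOXM1 higher at 24 h, 1 in place of 3), and 59 of 60 member values kept direction and side. The exception was E2F2 at 24 h, at 0.013.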
